A study of Mus musculus with 18 samples.

Results

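The terminal phase of induced differentiation was read from 2 dye-swap pairs of two-colour arrays, the arrays titled day5-B and day5-B-SD and those titled day6-B and day6-B-SD. They are 4 of the 18 arrays of the series and were chosen by their titles. The cells were murine erythroleukemia (MEL) cells, an established line of transformed erythroid precursors that takes up a program of red cell maturation when hexamethylene bisacetamide (HMBA) is added. Total RNA of cells 5 or 6 days after HMBA induction was set on the same array against RNA of control cells without HMBA. On the B arrays the labels put the induced RNA in channel 1 and the control in channel 2, and on the B-SD arrays they put them the other way round. The groups used for comparison were a day 0 pair with control RNA in both channels, the pairs of days 2 and 3 after HMBA, and the arrays of days 5 and 6 of a separate series titled A. The HMBA dose, the MEL subline and the age of the control cultures were not given in the labels used here, and 1 cell line limits what the values say about other erythroid cells.

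Each deposited value was a log2 ratio of the 2 channels, set here relative to the median of its own array. The difference B minus B-SD, divided by 2, is called the half-difference. It holds what turns with the channels and is the measure of the HMBA effect. The sum of B and B-SD, divided by 2, is called the half-sum. It holds what both arrays share whichever channel carried the induced RNA, and is called the probe bias. A half-difference of 1 log2 is a doubling of the ratio of induced to control RNA. The 2 days served as 2 replicates. Whether the pairs stem from separate cultures is not stated in the labels, so p-values here reflect just scatter between pairs, which may be technical. That scatter was pooled over the tested probes. The prior of the limma fit carried 152.4 degrees of freedom, so each SE of the terminal effect was near 0.49 log2. Such an SE or p-value says little of a probe's own scatter, and a call is close to a cut on the mean. The smallest mean called was 1.67 log2 in size and the largest not called 1.64. The dyes were not given either, so the direction of induced over control is the likely one, from the channel labels. It was checked on the alpha-globin probe Hba-ps3, which read 5.97 and 3.87 log2 on the B arrays of days 5 and 6 and -2.78 and -4.20 log2 on the B-SD arrays. That probe is therefore no independent evidence of the direction.

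Erythroid maturation couples the making of hemoglobin to an exit from the cell cycle. In textbook accounts, globin genes and the enzymes of heme synthesis are switched on by GATA1 and its partners, while MYB and MYC, which keep precursors dividing, fall. Chromatin then condenses, histone variants are exchanged, and organelles are cleared by autophagy and lysosomes. HMBA is a classic inducer of this program in MEL cells.

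Of the 13 probes higher and 7 lower that passed the threshold described further on, 9 and 5 had a promoter window in the RefSeq table of build GRCm38.p6, each of 250 bases before to 50 bases after the gene's start. The windows of H1f2, Btg2 and H2az1 are shown because they belong to the genes with the highest terminal values that had one. That of Alas2 is shown as the heme gene of the erythroid lineage. Capitals mark letters that match a motif on either strand. The CCAAT box was searched by the letters of its name. The motif bound by GATA factors was searched as AGATAA, and equally in the form TGATAA. The core promoter element named TATA box was searched as TATAAA. The histone H1 box was searched as AAACACA. Matches may overlap. The windows lie at chr13:23738557-23738856 on the plus strand (H1f2), chr1:134079106-134079405 on the minus strand (Btg2), chr3:137864237-137864536 on the plus strand (H2az1) and chrX:150547167-150547466 on the plus strand (Alas2). Each is written 5′ to 3′ along its gene.
H1f2: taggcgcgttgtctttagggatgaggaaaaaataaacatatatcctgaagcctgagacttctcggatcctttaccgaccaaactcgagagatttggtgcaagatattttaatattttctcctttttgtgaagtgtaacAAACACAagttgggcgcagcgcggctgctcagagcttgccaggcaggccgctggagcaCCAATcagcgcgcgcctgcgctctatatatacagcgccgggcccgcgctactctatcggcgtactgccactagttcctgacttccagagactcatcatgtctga
Btg2: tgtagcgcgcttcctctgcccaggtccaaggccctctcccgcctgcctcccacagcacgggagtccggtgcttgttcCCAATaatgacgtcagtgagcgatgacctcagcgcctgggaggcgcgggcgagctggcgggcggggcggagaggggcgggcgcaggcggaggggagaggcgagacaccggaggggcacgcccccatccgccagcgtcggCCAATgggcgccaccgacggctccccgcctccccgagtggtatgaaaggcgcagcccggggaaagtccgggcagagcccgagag
H2az1: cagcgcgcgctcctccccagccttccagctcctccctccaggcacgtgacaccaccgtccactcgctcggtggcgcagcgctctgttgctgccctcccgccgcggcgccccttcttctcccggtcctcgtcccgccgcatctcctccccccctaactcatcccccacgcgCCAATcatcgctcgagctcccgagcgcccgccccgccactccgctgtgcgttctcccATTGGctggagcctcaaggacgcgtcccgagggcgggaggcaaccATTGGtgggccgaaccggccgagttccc
Alas2: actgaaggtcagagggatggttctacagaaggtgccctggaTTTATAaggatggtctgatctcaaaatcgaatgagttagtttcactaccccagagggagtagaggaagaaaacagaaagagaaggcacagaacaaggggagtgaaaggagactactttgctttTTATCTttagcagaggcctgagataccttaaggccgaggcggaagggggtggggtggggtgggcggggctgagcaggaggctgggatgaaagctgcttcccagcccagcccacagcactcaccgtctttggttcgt
The H1f2 window held 1 H1 box, the element named after the promoters of linker histone genes, and 1 CCAAT box. The Btg2 window held 2 CCAAT boxes and the H2az1 window 3. The Alas2 window held 1 GATA motif and 1 TATA box. Of all 27025 windows of that length, 37.9% held a CCAAT box, 19% a GATA motif, 14.2% a TATA box and 7.14% an H1 box. CCAAT was found in 6 of the 9 windows of genes that passed as higher and in 3 of the 5 of genes that passed as lower. A GATA motif was found in 0 of the 9 and 1 of the 5, TATAAA in 3 and 2, and the H1 box in 1 and 1. The CACCC box (CCACACCC), present in 3.57% of all windows, was in 0 of 9 and 0 of 5. These are matches of letters and say nothing of binding.

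The terminal program was led by an alpha-globin probe, the linker histone gene H1f2 and the antiproliferative gene Btg2, all far higher in the induced RNA. The replacement histone genes H2az1 and H3f3b, the lysosomal protease gene Ctsl and the ubiquitin-conjugating enzyme gene Ube2a were higher as well. Lower in the induced RNA were the mitotic gene Ect2, the tubulin gene Tubb5, the granule proteoglycan gene Srgn, the galectin gene Lgals1 and Tkt, an enzyme of the pentose phosphate pathway. Of 1116 probes with a value on all 4 arrays, 20 passed a Benjamini-Hochberg adjusted p of 0.05 in limma (1.79% of those tested), 13 of them higher (1.16%) and 7 lower (0.627%). At an unadjusted p under 0.05 there were 111 probes, 73 higher and 38 lower. The half-difference had the same sign on both days in 611 of 1116 probes (54.7%) and in all 20 that passed. Without the centring of each array 16 passed, 6 higher and 10 lower, because the median of all probes moved from 0.10 to -0.12 log2. A fit with 1 bias term shared by both days, which leaves more of the pair's own bias in the residual, called 6, all higher. None of the 7 lower probes passed in it. Leaving out 1 array from that fit gave 29 calls without day5-B, 4 without day5-B-SD, 56 without day6-B and 2 without day6-B-SD. Of the 20 probes, 8, 16, 9 and 18 in that order were no longer called. The shared-bias fit with all 4 arrays had already lost 14 of them, so these losses do not come from the missing array alone. Hba-ps3 and H1f2 were called in all 4 of these fits, Ect2 and Tkt in 0 of them, and Psmb4 lay between 0.43 and 3.07 log2. The fits without day5-B-SD and without day6-B-SD called 0 probes lower.

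**Figure D1:**
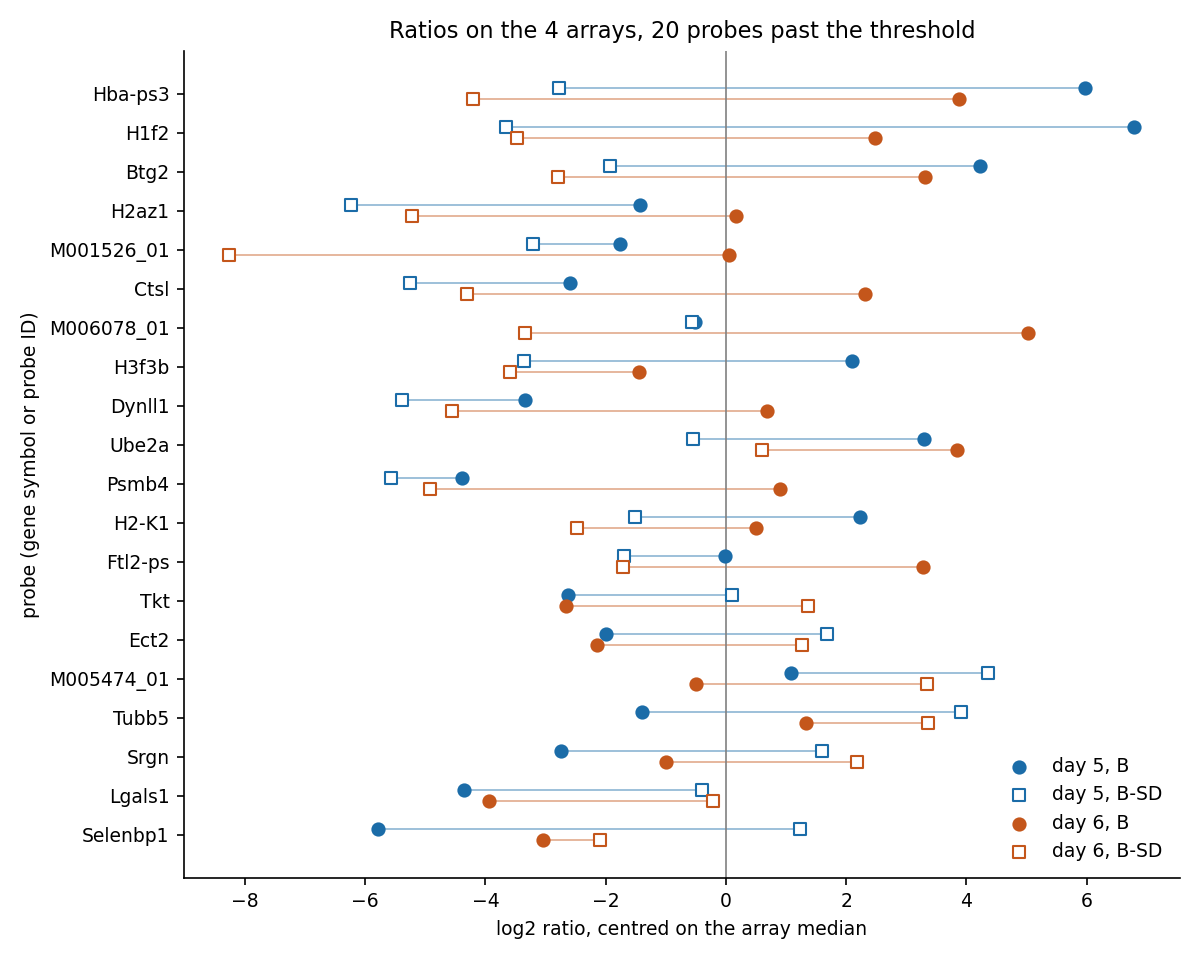
Centred log2 ratios on the 4 arrays for each probe that passed the threshold, B arrays and B-SD arrays of days 5 and 6 in separate symbols. Hba-ps3, H1f2 and Btg2 lay above 0 on both B arrays and below 0 on both B-SD arrays, whereas H2az1, Psmb4 and Dynll1 had B-SD values of -4.56 or lower and B values on either side of 0.

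The alpha-globin probe (symbol Hba-ps3, probe M004980_01) had half-differences of 4.37 log2 on day 5 and 4.04 on day 6. Its mean was 4.20 log2 (SE 0.49, n = 2 days), an 18.4-fold difference with an adjusted p = 7.37e-12 in limma. Both B arrays were high, both B-SD arrays were low, and the 2 orientations did not overlap. In bulk RNA, a larger share of maturing cells and more of a transcript per cell cannot be told apart. Hba-ps3 is annotated as a pseudogene, and a probe cannot tell it from the alpha-globin genes it resembles. On the arrays of series A it read 4.82 on day 5 and 4.13 on day 6, and 0.51 on day 0 with control RNA in both channels. The day 0 pair gave a half-difference of -0.53 for it.

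Beta-globin was less even between the days. The adult beta-globin probe Hbb-b2 read 0.36 on day5-B and -0.86 on day5-B-SD, then 2.22 on day6-B and -3.11 on day6-B-SD. All 4 arrays ran in the induced direction, with half-differences of 0.61 and 2.66 log2. The mean of 1.64 log2 (SE 0.49) did not pass the threshold (adjusted p = 0.0598 in limma) and was the largest that did not. On the arrays of series A, Hbb-b2 read 3.51 on day 5 and 1.86 on day 6. Of the embryonic globins, Hba-x had a half-difference of 0.42 log2 and Hbb-bh1 of -0.17 log2 on day 5, each from 1 pair without a test. On day 6, Hba-x read 1.24 on day6-B and -1.51 on the series A array, and Hbb-bh1 read -2.35 on day6-B-SD. Hbb-bh0 had a value on day5-B-SD alone, -1.19.

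Alas2, which starts heme synthesis in erythroid cells, lacked a value on day5-B and so could not enter the test. It read -2.04 on day5-B-SD, 3.25 on day6-B and -2.72 on day6-B-SD. Its half-difference on day 6 was 2.99 log2, and the arrays of series A gave 3.79 on day 5 and 1.54 on day 6. All 5 of these arrays ran in the induced direction, while the day 0 arrays with control RNA alone read -0.69 (B) and 1.28 (B-SD). Of the heme enzymes with 4 values, Alad had half-differences of -0.19 and 2.24 log2 and Cpox of -0.70 and -0.02 log2, and neither passed. Tfrc, the transferrin receptor, had a value on 1 of the 4 arrays, 0.52 on day5-B-SD. A single array keeps the probe bias, and the day 0 B-SD array with control RNA alone read 1.40 for Tfrc, so no direction was read. Series A read 1.31 and 0.18 for Tfrc on days 5 and 6, and -1.62 on day 0.

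Among the 9 tested probes of erythroid transcription factors and receptors, 0 passed and 7 had a mean below 0. Over all 1116 probes 1.79% passed and 477 had a mean below 0. Epor, the erythropoietin receptor, had half-differences of -1.59 on day 5 and -1.55 on day 6 (mean -1.57, adjusted p = 0.0706 in limma). Ldb1, the scaffold that joins GATA1 and TAL1 complexes, had -1.52 and -0.44. Gata1 itself read 0.37, -0.47, -1.99 and -0.37 on day5-B, day5-B-SD, day6-B and day6-B-SD, and its half-differences of 0.42 and -0.81 had opposite signs. Klf1, the activator of adult beta-globin, had -0.60 and 0.99. The median of the list was -0.17 log2 against 0.10 over all tested probes, and it was 0.11 with series A added.

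Myb, the transcription factor that holds precursors in cycle, ran in the lower direction on all 4 arrays. It read -0.97 on day5-B and 1.51 on day5-B-SD, then -1.13 on day6-B and 0.05 on day6-B-SD. The mean half-difference of -0.91 log2 (SE 0.49) did not pass (adjusted p = 0.546 in limma). The arrays of series A read -3.81 and -3.09 for it, further from 0 than either pair. Myc had a pair on day 5 alone, with a half-difference of -1.18 log2.

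**Figure D2:**
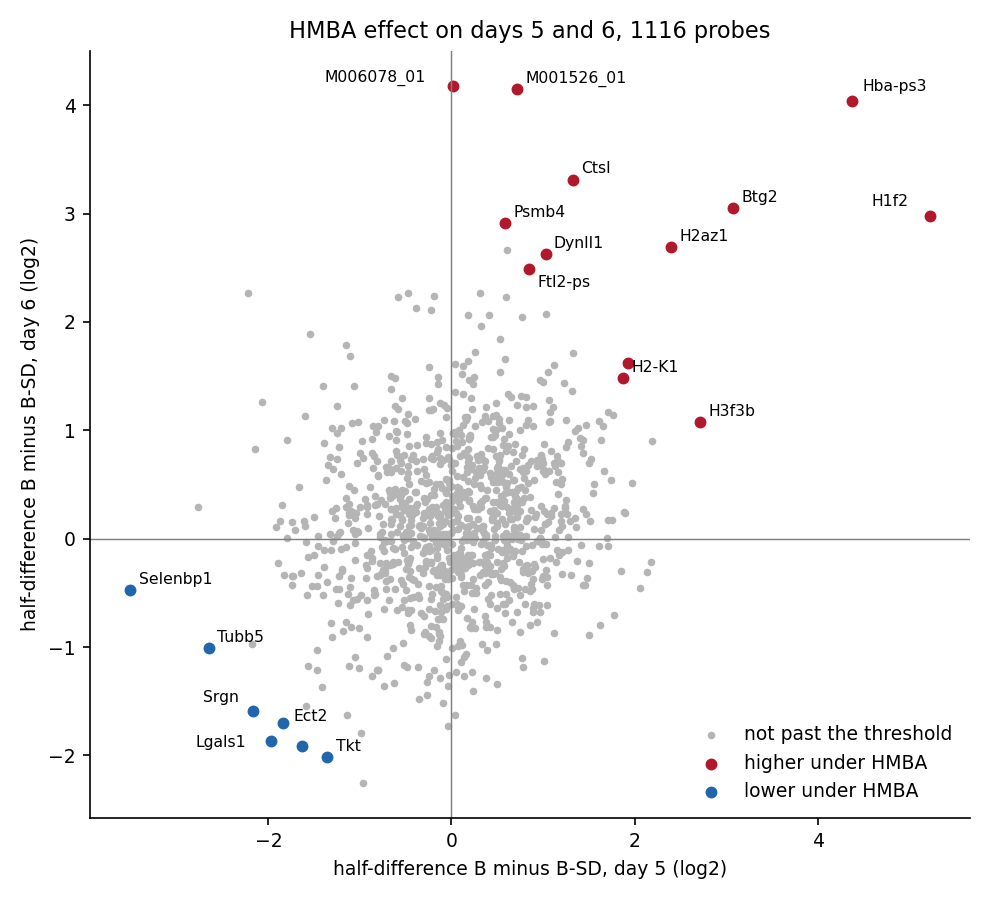
Half-difference of day 6 against that of day 5 for the 1116 probes with both pairs, in log2, with probes past the threshold in colour. Btg2, H2az1 and Hba-ps3 lay near equal values on both days, while M006078_01 and M001526_01 were above 4 log2 on day 6 and below 1 log2 on day 5.

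Btg2, which encodes an antiproliferative protein that slows entry into S phase, rose by nearly the same amount on both days. It read 4.23 on day5-B, -1.93 on day5-B-SD, 3.32 on day6-B and -2.79 on day6-B-SD. The half-differences were 3.08 and 3.05 log2, with a mean of 3.07 (SE 0.49, 8.38-fold, adjusted p = 1.07e-06 in limma). The B and B-SD arrays did not overlap and ran opposite ways on both days. Its call did not hold without day6-B-SD, at 2.85 log2 (adjusted p = 0.153). In the same list of cyclins and cell cycle brakes, 1 of 9 tested probes passed, Btg2 itself, against 1.79% of all 1116 probes. Ccni, an atypical cyclin, had 1.44 and 0.91 log2, and Rbl1, a pocket protein that restrains E2F, had -1.47 and -0.43. Neither passed.

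Genes of chromatin had 3 of 7 tested probes called higher and 0 called lower, where 1.16% and 0.627% of all probes were. H1f2, a linker histone that compacts nucleosome arrays, read 6.79 on day5-B, -3.66 on day5-B-SD, 2.48 on day6-B and -3.47 on day6-B-SD. Its half-differences were 5.23 and 2.98 log2, and its mean of 4.10 (SE 0.49, 17.2-fold) had an adjusted p = 2.91e-11 in limma. The day 5 value was the largest half-difference of any probe that passed, and 6.79 was the highest value of H1f2 on any of the 4 arrays. Series A gave 3.13 and 1.82 for H1f2.

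H2az1, a replacement histone of H2A placed at promoters, had even half-differences of 2.40 and 2.69 log2 (mean 2.54, adjusted p = 1.53e-04 in limma) on top of a large probe bias of -3.18 log2. Its 4 arrays read -1.44 on day5-B, -6.23 on day5-B-SD, 0.17 on day6-B and -5.21 on day6-B-SD. The B arrays were thus near or below the array median, and the call came from B-SD arrays that were far lower. On B arrays alone its mean was -0.63 log2. H3f3b, which encodes the replacement histone H3.3, had 2.72 and 1.07 log2 (mean 1.90, adjusted p = 0.0167 in limma). Cbx3, a heterochromatin protein, had 0.22 and 1.30, and the high mobility group gene Hmgb3 had -1.90 and -0.22. The list's median was 0.76 log2, and it was -0.87 on B arrays alone and 2.67 on B-SD arrays alone with the sign turned.

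Genes of mitosis leaned to the lower side. Of 7 tested probes, 6 had a mean below 0, 5 were below 0 on both days and 2 passed as lower, with a list median of -1.07 log2. Over all 1116 probes 477 had a mean below 0, 235 were below 0 on both days and 7 (0.627%) passed as lower. Ect2, which is needed for the cleavage furrow of dividing cells, read -1.99 on day5-B, 1.68 on day5-B-SD, -2.14 on day6-B and 1.26 on day6-B-SD. The 2 orientations were far apart and even between days, and the mean half-difference was -1.77 log2 (SE 0.49, adjusted p = 0.026 in limma). Its day 0 pair, with no induced RNA, read -0.97 log2, and with that pair subtracted Ect2 stood at -0.80 log2 and did not pass (adjusted p = 0.367). Tubb5, a beta-tubulin of the spindle, had -2.65 and -1.01 log2 (mean -1.83, adjusted p = 0.0235 in limma), on day 6 with both arrays above 0. With the day 0 pair subtracted Tubb5 stood at -1.68 log2 and did not pass (adjusted p = 0.0728 in limma). Tuba1b, an alpha-tubulin, had -1.57 and -1.18, and Incenp, the scaffold of the Aurora B complex, had -1.06 and -1.09. Neither passed. Both ran opposite ways on all 4 arrays, which is a condition of the rule that named them and so no added evidence. The list median was -0.65 with the day 0 pair subtracted and 0.04 on B-SD arrays alone.

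DNA replication had 0 of 11 tested probes past the threshold, with 8 below 0 and a list median of -0.43 log2. Over all 1116 probes 1.79% passed and 477 were below 0, with a median of 0.10 log2. Mcm5, a subunit of the helicase that opens origins, had -1.47 and -1.21 log2, and Mcm7, another subunit, had -1.19 and -0.85. Tk1, the thymidine kinase of S phase, had -0.87 and -1.27. Pola1, the catalytic subunit of the polymerase that lays down primers, went the other way with 1.66 and 1.04. With the day 0 pair subtracted the list's median was 0.21 log2, above 0.

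**Figure D3:**
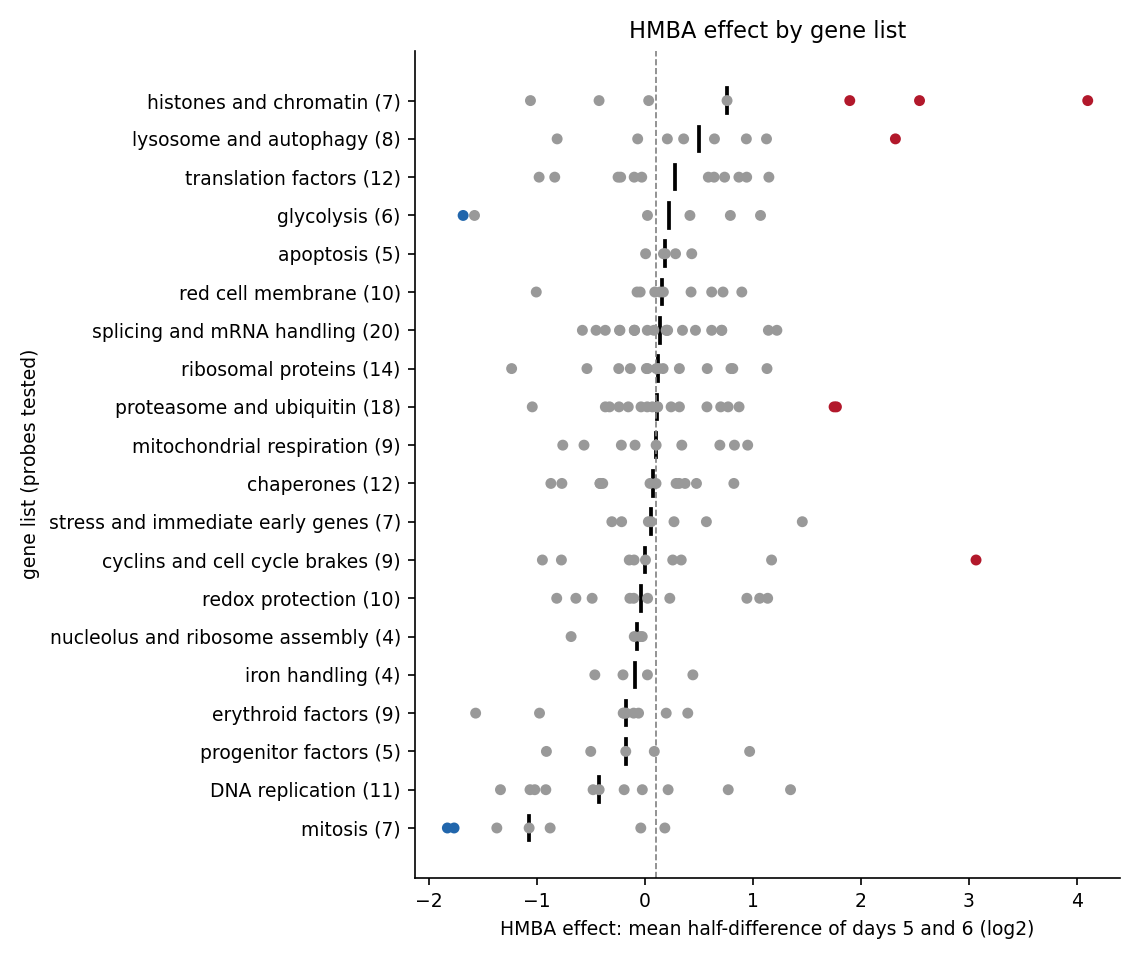
Mean terminal half-difference of every tested member of the gene lists, 1 point per probe in log2, with the list median as a line and probes past the threshold in colour. The mitosis list has the lowest median, -1.07, and the histone list the highest, 0.76, of those with at least 4 probes, against 0.10 over all 1116 probes.

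The lysosome and autophagy list had 6 of 8 tested probes above 0, 1 of them called, and a median of 0.50 log2. Over all 1116 probes 639 were above 0 and 1.16% were called higher. Ctsl, the cysteine protease cathepsin L, read -2.60, -5.25, 2.32 and -4.31 on day5-B, day5-B-SD, day6-B and day6-B-SD. Its half-differences of 1.33 and 3.31 log2 gave a mean of 2.32 (SE 0.49, adjusted p = 0.00103 in limma), with a probe bias of -2.46. It did not pass with the day 0 pair subtracted (1.43 log2, adjusted p = 0.124) or, in the fit with a shared bias, without day6-B (1.09, adjusted p = 0.33), day5-B-SD (2.08, adjusted p = 0.863) or day6-B-SD (2.55, adjusted p = 0.369). Only day6-B lay above the array median. Bnip3l, the receptor by which maturing red cells clear mitochondria, had 1.08 and 1.17 log2 (adjusted p = 0.371), and Sqstm1, an adaptor that brings cargo to autophagosomes, had 1.16 and 0.72 (adjusted p = 0.515). The median of this list was -0.13 with the day 0 pair subtracted and -0.14 on B arrays alone.

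The list of proteasome and ubiquitin genes had 2 of 18 tested probes called higher and 0 called lower, where 1.16% and 0.627% of all probes were. Ube2a, an E2 enzyme that ubiquitinates histone H2B, had 1.93 and 1.62 log2 (mean 1.77, adjusted p = 0.026 in limma). Its probe bias was 1.37 on day 5 and 2.23 on day 6 and also passed (adjusted p = 0.0431 in limma). The B-SD arrays read -0.55 on day 5 and 0.61 on day 6, so the call came from high B arrays. On B-SD arrays alone with the sign turned its mean was -0.027 log2. With series A added Ube2a did not pass (1.17 log2, adjusted p = 0.286 in limma). Psmb4, a subunit of the proteasome core, had 0.59 and 2.91 log2 (mean 1.75, adjusted p = 0.0351 in limma) with a probe bias of -3.49. Psmb8, the subunit that replaces a catalytic one in immune cells, had -1.31 and -0.78 and did not pass. The list median was 0.11 log2, against 0.10 over all probes, and it was -0.11 without centring.

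Among genes of the cell surface and granules, Srgn, the proteoglycan core of secretory granules, read -2.75 on day5-B, 1.60 on day5-B-SD, -0.995 on day6-B and 2.18 on day6-B-SD. Its mean half-difference was -1.88 log2 (SE 0.49, 3.68-fold lower, adjusted p = 0.0167 in limma), and the 2 orientations did not overlap. H2-K1, a class I antigen of the mouse, had 1.87 and 1.48 log2 (mean 1.68, adjusted p = 0.0427 in limma). Itga2b, the platelet integrin chain also found on progenitors, had 1.32 and 1.71 (adjusted p = 0.0887), and Selplg, the ligand of P-selectin, had -0.96 and -2.25 (adjusted p = 0.0626). Markers of other blood cells were thinly measured. Values on all 4 arrays existed for 0 of 11 mast cell markers, 1 of 10 megakaryocyte markers (Itga2b), 3 of 18 myeloid markers, 0 of 25 lymphoid markers and 1 of 14 markers of fibroblasts and stroma. The part of other cell types in these results was not tested.

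In carbon metabolism, Tkt read -2.62 on day5-B, 0.10 on day5-B-SD, -2.66 on day6-B and 1.37 on day6-B-SD. Its half-differences were -1.36 and -2.01 log2 (mean -1.69, adjusted p = 0.0427 in limma). Ldha, the lactate dehydrogenase of fermenting cells, had -2.18 and -0.98 (adjusted p = 0.0706), whereas Hk1, the hexokinase of red cells, had 1.06 and 1.08 (adjusted p = 0.419). Of lipid and stress genes, the desaturase gene Scd2 had 1.03 and 2.07 (adjusted p = 0.079) and the immediate early gene Fos 1.77 and 1.15 (adjusted p = 0.128). The antioxidant genes Mt2 and Prdx2 had means of 1.14 and 1.06, and neither passed.

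A further 7 probes passed but lay outside the rule for naming, and they were picked out after their values were seen. Lgals1, a secreted galectin, had -1.98 and -1.86 log2 with B arrays at -4.36 and -3.94 and B-SD arrays at -0.40 and -0.21. Selenbp1, a selenium-binding protein, had -3.51 on day 5 and only -0.47 on day 6. The day 0 pair read -0.78 log2 for Lgals1 and -0.84 for Selenbp1. With that pair subtracted neither passed (adjusted p = 0.158 and 0.316 in limma). Dynll1, a dynein light chain, had 1.03 and 2.62 with a bias of -3.15, and the ferritin light chain pseudogene probe Ftl2-ps had 0.85 and 2.49. The probes M001526_01, M006078_01 and M005474_01 had no gene symbol in the annotation. M006078_01 read 5.03 on day6-B and -3.33 on day6-B-SD but -0.52 and -0.56 on day 5, so its half-differences were 4.18 and 0.02 log2. It passed with a mean of 2.10 because the prior of the fit, with 152.4 degrees of freedom, gave every probe nearly the same spread of 0.69 log2. On series A it read 5.02 on day 5 and 2.92 on day 6. In all, 5 of the 20 probes that passed were below 1 log2 on 1 of the days.

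The rule that a probe run opposite ways on B and B-SD on both days needs no model, but its signs depend on the centring of each array. It held for 29 probes in the higher direction (2.6%) and 20 in the lower direction (1.79%). Of the 20 that passed the fit, 7 met it, 4 higher (Hba-ps3, H1f2, Btg2 and H2-K1) and 3 lower (Srgn, Ect2 and Tkt). A half-difference over 1 log2 on both days was seen for 27 probes higher (2.42%) and 15 lower (1.34%). The others with that sign pattern and the smallest p-values, none past the threshold, included Adam5, a membrane protein of the ADAM family (mean 1.55), the homeobox gene Hoxa4 (1.44), the enamel gene Tuft1 (1.20), the cationic amino acid transporter Slc7a3 (1.14), the complement inhibitor Cd55 (-0.95) and D17H6S56E-5 (-1.38).

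Probe bias was larger than the HMBA effect for most of the table. The size of the half-sum was above that of the half-difference in 827 of 1116 probes (74.1%), with a median of 0.85 against 0.38 log2. By the same test 176 probes had a bias past the threshold (15.8%), 125 negative (11.2%) and 51 positive (4.57%). The lowest mean half-sums were those of Rpl9, a ribosomal protein (-3.91), Cct4, a chaperonin subunit (-3.68), and Psmb4 (-3.49). The highest were those of Mtmr9 (2.73), of Hap1, a partner of huntingtin (2.50), and of the cytochrome P450 gene Cyp2c38 (2.39). Ribosomal proteins had a median bias of -2.55 log2 over 14 probes, but a median HMBA effect of 0.12, which was -0.11 without centring. Of these 14 probes 0 had a called HMBA effect, against 1.79% of all 1116 probes. Of the 20 probes with a called HMBA effect, 10 also had a called bias.

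**Figure D4:**
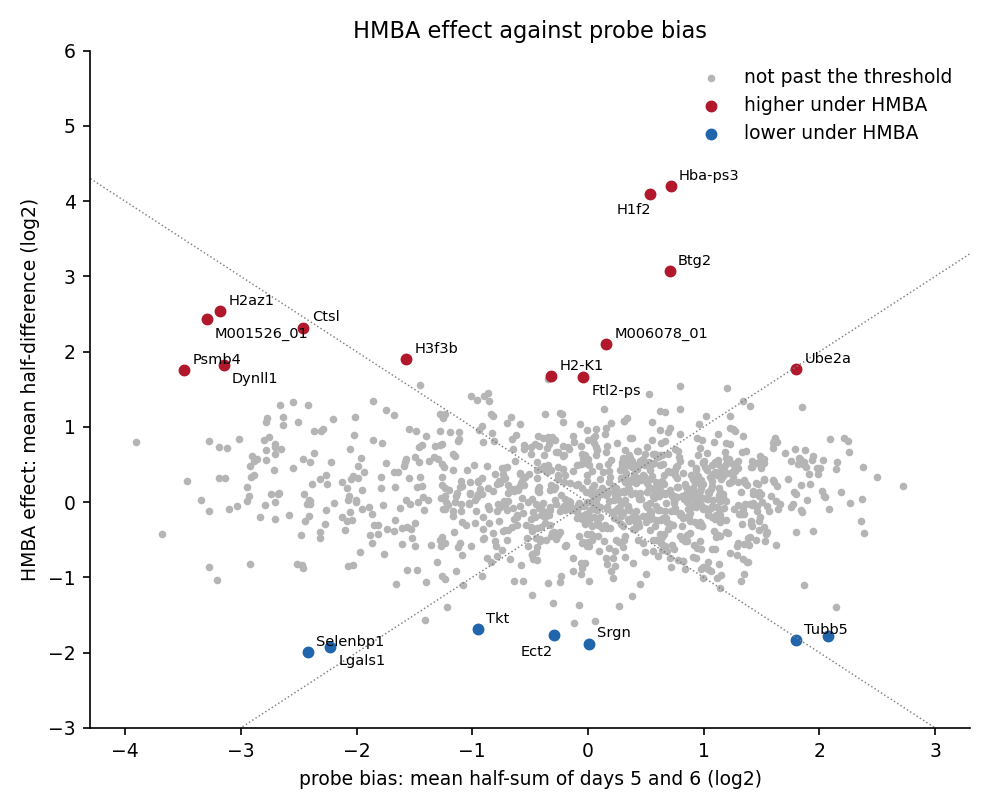
Mean half-difference (HMBA effect) against mean half-sum (probe bias) over days 5 and 6 for 1116 probes, in log2, with dotted lines where both sizes are equal. The cloud is wider along the bias axis, and H2az1, M001526_01, Psmb4, Dynll1 and Ctsl passed as higher with a bias between -3.49 and -2.46.

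The bias was shared with arrays that held no induced RNA. Across probes, the half-sum of day 5 correlated with that of the day 0 pair at r = 0.82 (1185 probes) and that of day 6 at r = 0.69 (1079 probes). These are correlations across genes, which are not independent replicates, and the arrays share a probe set. Half-sums of days 5 and 6 correlated at r = 0.56 and half-differences at r = 0.23 (1116 probes each). The half-difference was not free of the bias: it correlated with the half-sum at r = 0.26 on day 5 (1874 probes) and at r = -0.19 on day 6 (1609 probes).

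The day 0 pair gives the background of the half-difference. With control RNA in both channels its SD was 0.61 log2 over 1602 probes, against 0.86 on day 5 and 0.78 on day 6. More than 2 log2 from 0 were 1 probe on day 0, 42 of 1874 on day 5 and 42 of 1609 on day 6. Of the 20 probes that passed, 15 had a day 0 pair, and their day 0 half-differences lay between -0.97 and 0.89 log2. With the day 0 pair subtracted 21 of 876 probes passed, of which 7 were among the 20. These were Hba-ps3, Btg2, H2az1, M001526_01, H3f3b and H2-K1 on the higher side and Tkt on the lower side. Of the other genes called lower, Ect2, Lgals1, Selenbp1 and Tubb5 did not pass, and Srgn had no day 0 pair.

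Days 5 and 6 differed for several lists, and with 1 pair a day that difference has no test. Chaperones had a median of -1.10 log2 on day 5 and 0.34 on day 6 (12 probes), mitochondrial respiration -0.15 and 0.81 (9 probes), the proteasome and ubiquitin list -0.39 and 0.65 (18 probes) and ribosomal proteins -0.29 and 0.69 (14 probes). The heat shock genes Hspa8 and Hsp90aa1 went from -1.15 and -1.11 to 1.78 and 1.69, and the proteasome subunit gene Psma5 from -2.22 to 2.26. These lists all had a negative median bias, between -2.55 and -0.49 log2, and across all probes the half-difference correlated with the bias with opposite signs on the 2 days. They were picked out after their values were seen, and lists with a negative bias did not all move this way. Glycolysis (median bias -1.37) had 0.43 on day 5 and -0.37 on day 6, and the lysosome and autophagy list (median bias -0.96) had 0.83 and 0.11. The part of the bias in these day differences was not tested. Without centring each half-difference is lower, by 0.10 log2 on day 5 and 0.35 on day 6, and the day 6 median of the chaperones is then -0.0072, no longer above 0, while those of the other 3 lists stay above 0. Mitosis was even, at -1.06 and -1.09.

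The pairs of days 2 and 3 gave the same measure earlier in the course. Before they are compared, the pair of day 3 has to be set apart: its Hba-ps3 values were 2.07 on B and 0.94 on B-SD, a half-difference of only 0.56 log2 after 3.24 on day 2, so for this probe the B-SD array did not fall below 0 as on the other induced days. Other called probes were mixed on day 3. Some kept their terminal direction, with half-differences of 3.02 for H1f2 and -2.68 for Srgn. Others called higher were near 0 or below it, with 0.14 for H2az1, -1.17 for Ctsl, -1.58 for Dynll1 and -2.46 for Psmb4. The day 3 half-difference also had a median of -0.48 log2 and correlated at r = 0.55 with the day 0 array of series A (1270 probes), against 0.16 on day 2, 0.08 on day 5 and -0.20 on day 6. Among 678 probes with all 4 pairs, 1 passed for terminal minus mid (0.147%), and 49 had an unadjusted p under 0.05, 47 higher and 2 lower. That probe was Psmb4, with half-differences of -0.79, -2.46, 0.59 and 2.91 log2 on days 2, 3, 5 and 6. The difference was 3.38 log2 (SE 0.70, adjusted p = 9.4e-04 in limma). Without the day 3 pair it was 2.54 (adjusted p = 0.998) and 0 probes passed, and 0 passed as well without day 6 or without centring, while 7 passed without day 2 and 11 without day 5. Psmb4 was at 2.22 without day 6 and 2.97 without centring.

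Other values of that comparison did not pass. Ctsl was 2.51 log2 higher on days 5 and 6 than on days 2 and 3, Gapdh 2.42 and Hba-ps3 2.30. H1f2 was already at 4.04 log2 on day 2 and 3.02 on day 3, and its difference was 0.57. Srgn was at -3.10 and -2.68 before it reached -2.17 and -1.59. H2az1 moved from 0.48 and 0.14 to 2.40 and 2.69 (difference 2.23, adjusted p = 0.118), and Btg2 from 1.67 and 0.60 to 3.08 and 3.05 (difference 1.93, adjusted p = 0.296). On the lower side Tubb5 had a difference of -1.46, Racgap1, which acts with Ect2 in cytokinesis, of -1.45, and the LIM protein gene Limd1 of -1.17.

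**Figure D5:**
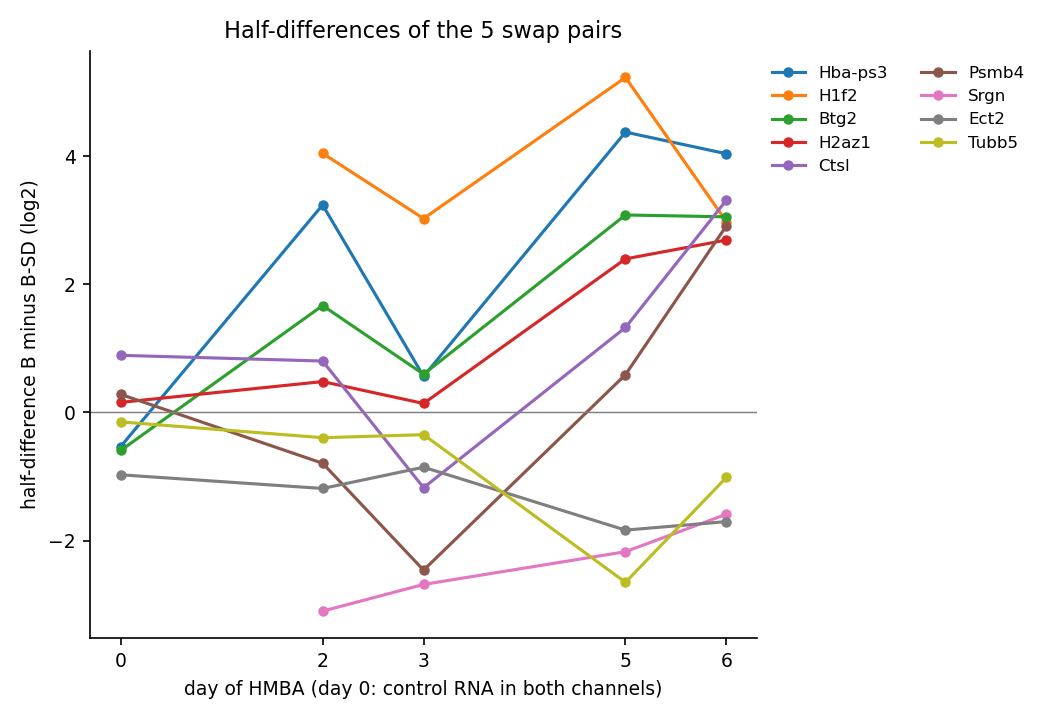
Half-difference of the pairs on days 0, 2, 3, 5 and 6 for selected genes, in log2, with 1 pair a day and no error bar. H1f2 was at 2.98 log2 or more on each induced day, Btg2 and H2az1 were highest on days 5 and 6, and Srgn was below -1.5 on each induced day.

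The arrays of series A on days 5 and 6 enter no half-difference and have 1 orientation only, so probe bias is not removed from them. Of the genes that passed, Ect2 read -1.78 and -0.44 there, Lgals1 -2.58 and -4.63, Srgn -2.21 and -1.002, Tkt -2.47 and -0.73 and Tubb5 -2.26 and 0.97. Btg2 read 3.19 on day 5 and 0.64 on day 6, and Ube2a 0.36 and 1.98. H2-K1 read 0.31 and 0.17, well below its half-differences, and Selenbp1 read -0.12 and -0.15. Several genes called higher had a value below 0 there: Psmb4 read -0.70 and -0.12, H2az1 0.52 and -1.62, Dynll1 0.20 and -0.87 and H3f3b 0.73 and -0.47. The day 0 array of series A, with control RNA alone, read -1.42 for Psmb4, -1.71 for H2az1 and -1.65 for Dynll1, and lacked H3f3b. It read 0.28 for Btg2, -0.98 for H2-K1 and 1.45 for Ube2a, the last above its day 5 value. Of the genes called lower, it read -0.15 for Ect2, -1.88 for Lgals1, 0.11 for Srgn, -1.14 for Tkt, 0.82 for Tubb5 and -0.17 for Selenbp1. With the series A arrays of days 5 and 6 added to the fit with a shared bias, 16 of 847 probes passed, of which 13 were among the 20.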

How the data were processed

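The deposited table held 1 column per array, and its values are log2 ratios of 2 channels, a scale known from the values. Taken as exponents of 2, the low values give ratios that end after 3 decimals (tolerance 0.02 of a thousandth). On the B-SD arrays the high values do so once the sign is turned. The authors therefore appear to have turned the sign of those arrays before they were deposited, for a reason not given in the sources used here, and the dyes, the numerator, the image analysis and any normalization are not given either. Spot brightness was not used here, and the number of arrays limits the precision. The 4 arrays held values for 2453, 3129, 2302 and 2774 of 6868 probes (day5-B, day5-B-SD, day6-B, day6-B-SD), with deposited medians of 0.27, 0.48, -0.0022 and 0.70 log2.

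Arrays were centred on their medians. The half-difference and half-sum of each day were fitted with an intercept by limma 3.58.1 in R 4.3.3 with eBayes, two-sided, with Benjamini-Hochberg adjustment over 1116 probes at 0.05. Each day's pair is its own block, so a bias particular to a day cancels. A pair existed for 1874 probes on day 5 and 1609 on day 6. Terminal minus mid compared the 2 pairs of days 5 and 6 with those of days 2 and 3 over 678 probes. The median SE was 0.49 log2. Checks on simulated data were run first.

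Symbols came from the platform annotation (6108 probes with 1 symbol, 41 with several, 719 with none). Of these, 6062 matched a RefSeq gene table by Entrez identifier, and 0 needed an update. Of the 1116 tested probes, 986 had 1 symbol. Named genes were the 12 higher and 12 lower with the smallest p among single-symbol probes that ran opposite ways on both days. Added to them were 3 each way for terminal minus mid and for the bias, the 3 smallest p-values of each of 29 gene lists with 3 or more probes, and fixed erythroid genes. Other list members given were picked once values were known. The pairs, the lists and the tests were chosen with earlier results of these data known. Alternatives changed the centring, the spread, the bias term, the arrays used and the filter. The use of series A arrays and of B or B-SD arrays alone was also tried.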

Additional observations from a re-analysis of the deposited data

Results flagged for a closer look

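Psmb4, a subunit gene of the proteasome core, was picked out because its HMBA effect differed between the terminal and the middle days by a test of that difference. Its half-difference was 3.38 log2 higher on days 5 and 6 than on days 2 and 3 (SE 0.70, adjusted p = 9.4e-04 in limma). It was below 0 on day 2 (-0.79) and day 3 (-2.46) and above 0 on day 5 (0.59) and day 6 (2.91), so both terminal pairs lay above both middle pairs. The difference was 2.54 log2 without the pair of day 3, in which Hba-ps3 read above 0 on both arrays, and 2.22 log2 without the pair of day 6. Neither passed (adjusted p = 0.998 each). The probe had a mean bias of -3.49 log2 on days 5 and 6 and of -3.81 log2 in the day 0 pair, and the part of that bias in the result was not tested.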

How the results depend on the processing

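Of 774 values of 53 named genes and probes under the alternatives, 750 kept their direction. That count includes settings that could not turn a direction. With no replicate block, or with a pair on at least 1 day, the effect of these probes is the same as in the main fit. The 20 terminal calls became 6 with no replicate block (1 bias term shared by both days), all 6 higher and among the 20. They became 43 with a pair on at least 1 day. B-SD arrays alone with the sign turned gave 408. Leaving out single arrays also drops the replicate block and changes which probes are tested. It gave 2 to 56 calls, against 6 in the same fit with all 4 arrays, and 18 of the 20 were lost in at least 1 of these fits (Hba-ps3 and H1f2 were kept in each). It gave 52 to 362 bias calls, against 227 in the same fit with all 4 arrays and 176 with the block, and Gata1 lay between -0.81 and 0.42 without single arrays or days. The other settings gave 16 without centring, 30 with equal spread, 25 on B arrays alone, 21 with the day 0 pair subtracted, 16 with series A, and 29 with the linear part of the bias removed, chosen after seeing the data. The single terminal minus mid call became 0 without centring, 7 with equal spread, and 0 to 11 without single days. In these settings without a call, 28 probes without centring, 12 without day 3 and 29 without day 6 had an unadjusted p under 0.05 in limma.

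Directions reversed on B arrays alone for H2az1 (-0.63), M001526_01 (-0.86), Ctsl (-0.14), Dynll1 (-1.32), M005474_01 (0.30), Psmb4 (-1.74), Pola1 (-0.51), Srsf5 (-0.53), Ccni (-0.11), Bnip3l (-0.89), Hk1 (-1.71) and Prdx2 (-1.45). On B-SD arrays alone they reversed for Selenbp1 (0.43), Lgals1 (0.31), Ube2a (-0.027), Mknk2 (-0.079), Tk1 (0.34), Ldb1 (0.29) and Gata1 (0.42). With the day 0 pair subtracted they reversed for Rhag (0.0014) and Gata1 (0.70), and with series A added for Gata1 (0.11). Arrays of 1 orientation keep the probe bias. The cause of the other changes was not tested. No further check of the pairing was made, because each pair is already 1 replicate.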

Other observations

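Among probes with a pair on 1 day alone, 758 on day 5 and 493 on day 6, larger values were more often higher than lower after centring. On day 5, 123 were above 1 log2 and 75 below -1 log2, and on day 6 there were 79 and 30. Beyond 2 log2 there were 15 higher and 10 lower on day 5 and 12 higher and 5 lower on day 6. The medians were 0.11 and 0.12 log2. This balance depends on the centring: without it each half-difference is lower, by 0.10 log2 on day 5 and 0.35 on day 6. Without centring the calls of the terminal fit were 6 higher and 10 lower. Of genes for the handling of mRNA, 10 of 20 tested probes were above 0 and 4 below 0 on both days, with 0 called and a list median of 0.14 log2. Over all 1116 probes 376 were above 0 and 235 below 0 on both days, 1.79% were called and the median was 0.10 log2. Srsf5, a splicing factor, had 1.00 and 1.45 log2, and the RNA helicase gene Ddx5 had 0.71 on each day. Apoptosis genes had 0 of 5 tested probes called, with means between 0.01 and 0.43 log2, but Pdcd6 had -1.55 on day 5 and 1.89 on day 6. Of red cell membrane genes 0 of 10 passed, and Rhag, the Rh-associated glycoprotein, had -0.81 and -1.21 log2, with -1.01 in the day 0 pair. Mknk2, a kinase of the cap-binding factor eIF4E, had 1.67 and 0.63 log2 and did not pass (adjusted p = 0.365 in limma).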
